A study of Homo sapiens with 6 samples.

Results

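The m6A peaks of U2OS cells that received a control siRNA formed a list of 15272 regions in 9618 genes, out of 41729 regions in the 3 peak lists of the series. U2OS is a human bone osteosarcoma line, labelled as wild type, and the labels name no clone. The list sets 1 m6A-IP library, made by pulling down fragmented cytoplasmic RNA of about 100 nt with an anti-m6A antibody, against 1 input library of the same RNA without antibody. Every region of the control list was taken, with no choice by value, and the lists of cells that received an siRNA against the m6A reader YTHDF2 (DF2) were not compared with it. The name of the list says that it merges r1 and r2, but the labels hold 1 input and 1 m6A-IP of control cells, so no value here has a replicate error. Intervals in parentheses are 95% exact binomial intervals over peaks or genes and cover counting error only.

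N6-methyladenosine (m6A) is a methyl group placed on adenosines inside RNA by a nuclear writer complex built around METTL3 and METTL14, and removed by the erasers FTO and ALKBH5. It is read by proteins with a YTH domain and by several other RNA-binding proteins, and in messenger RNA it is known to gather near stop codons, in 3′ UTRs and in long internal exons. Antibodies against m6A also bind m6Am, a related mark that PCIF1 places on the first transcribed base next to the cap where that base is an adenosine. Regions enriched by such an antibody can therefore hold either mark where they reach a transcript start.

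Because some of the strongest 5′ UTR regions contained the transcript start, the bases around 8 such starts show what kind of first base lies under them. The genes are those with 1 RefSeq start (assembly GRCh38.p14) and the highest-scoring 5′ UTR regions that cover it. Each line gives 30 bases of the coding strand 5′ to 3′, and the capital letter at position 16 is the first transcribed base.
TMEM115: acgcgcaggcgcagcAcccctgtttgtcgg
HNRNPA0: cgcgcgttcagcggcCtctttgtgtggtgc
ZDHHC5: ggccgcgcgctgcttCtctgaggcaggacg
AFF4: tggcacggccgctgcGtcagtcacagccct
NFIC: ggcccccccctcgccGgggaccgagcgcgc
RPL41: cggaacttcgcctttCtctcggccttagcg
PCBP1: cttcccgccccgcccAgaccgccgaggctg
S100A6: actgcgacacagcccAtcccctcgaccgct
The windows lie at chr3:50359507-50359536 (minus strand), chr5:137754349-137754378 (minus), chr11:57668099-57668128 (plus), chr5:132963620-132963649 (minus), chr19:3359615-3359644 (plus), chr12:56116618-56116647 (plus), chr2:70087462-70087491 (plus) and chr1:153535977-153536006 (minus), in the order of the lines. The first base was A in 3 of these windows, C in 3 and G in 2. The region of TMEM115, a Golgi membrane protein, had a score of 3700 and covered 1200 bases, and that of S100A6, a calcium-binding protein, had a score of 2065 and covered 200 bases. The score is a whole number that the authors gave each region. What it counts is not stated in the labels or the file, so it served only to rank regions within this list.

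Of 20037 RefSeq protein-coding genes, 7758 held at least 1 region, a background of 38.7% (38.0 to 39.4) against which each gene group below can be read. Of these 7758 genes, 1313 had a peak in the top decile by score. Counts of top-decile members below can be read against that, and in short lists they say little. The gene lists and families were chosen with earlier results of these data known. Their shares and intervals therefore describe the chosen lists and are no test against the background. The labels call the cells epithelial, and 0 of 6 epithelial markers (EPCAM, CDH1, KRT8, KRT18, KRT19 and CLDN4) had a region, which allows a share of up to 45.9%. Of 10 mesenchymal and osteoblast markers 3 had one, with scores of 3124 for ENG (endoglin), 146 for COL1A1 (type I collagen) and 101 for RUNX2, the osteoblast transcription factor. VIM, THY1, NT5E, COL1A2, SPARC, ALPL and SP7 had none. The blood marker CD14 had a region of score 25 and PTPRC and CD3E had none, 2 of 3 endothelial markers had regions (CDH5 with a score of 366 and PECAM1 with 58, KDR with none), and 0 of 3 neural markers (SYP, RBFOX3 and GFAP) did. A region needs both RNA and its enrichment. A gene without a region may be unexpressed, scarce in the cytoplasmic RNA used, unmethylated or too weakly enriched to be called. The list alone cannot tell these apart.

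The question the list answers is where in the transcripts of control siRNA cells the antibody found its mark. By the authors' annotation, 6559 regions (42.9%, 42.2 to 43.7) included a stop codon, and these stop codon peaks covered 54.2% of the 12.1 Mb of the whole list. Peaks of the 3′ UTR without a stop codon numbered 2915 (19.1%, 18.5 to 19.7), those of the 5′ UTR 2204 (14.4%, 13.9 to 15) and those of coding sequence alone 1138 (7.45%, 7.04 to 7.88). A further 1923 peaks (12.6%, 12.1 to 13.1) lay on non-coding RNA, 109 joined parts that no class holds, and 424 (2.78%) carried no annotation. Of the unannotated peaks, 88.4% belonged to genes that RefSeq lists as protein-coding. Regions without regard to class touched coding sequence in 61.2% of cases, the 3′ UTR in 56.8%, the 5′ UTR in 23.3% and non-coding transcripts in 14.6%. The annotation names no transcript, so the stop codon of a peak need not be the main one of its gene. There were 817 genes with 2 or more stop codon peaks, and 494 peaks joined 5′ UTR, coding sequence and stop codon without 3′ UTR. The strongest stop codon peak of FAT1 (score 5835, minus strand) was of that kind and lay upstream of the gene's other regions.

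Nearly all stop codon peaks were annotated with other transcript parts too. In 4821 peaks (31.6% of the list) the annotation joined coding sequence, stop codon and 3′ UTR, with a median covered width of 800 bases. In 372 peaks the annotation joined coding sequence and stop codon without a UTR. Only 4 peaks were annotated with the stop codon and nothing else. A stop codon is far shorter than the 200-base steps of the list, so that count says little about how far enrichment reached. Another 745 peaks ran from the 5′ UTR through coding sequence and stop codon to the 3′ UTR. These covered a median of 1400 bases and had a median fold enrichment of 42.0 over input, against 28.9 for the 4821 peaks without 5′ UTR. The region of BLOC1S4, a subunit of a complex that forms lysosome-related organelles, had all these parts, with 1 block of 1400 bases on chromosome 4 and a fold of 180. That of SMAD4 was annotated with the same parts and covered only 400 bases. The annotation lists the parts that a peak touches and gives no path along 1 transcript. Most 5′ UTR peaks were of 2 kinds. Of these, 1052 were annotated with the 5′ UTR alone, with a median width of 200 bases and a median score of 31. A further 1075 were annotated with coding sequence too, with 600 bases and a median score of 197.

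Widths came in steps of 200 bases. The covered width was a multiple of 200 in 86.7% of peaks, with 1986 peaks at 200 bases, 2622 at 400, 2754 at 600 and 1832 at 800, and 21.2% of peaks were wider than 1000. The median was 600 bases with quartiles of 400 and 1000. Stop codon peaks were the widest class, with a median of 800 bases and quartiles of 600 and 1200. The 3′ UTR, coding and non-coding RNA peaks each had a median of 600 bases, and 5′ UTR and unannotated peaks of 400. Peaks of 200 bases or less made up 36.8% (34.8 to 38.9) of 5′ UTR peaks and 3.86% (3.40 to 4.35) of stop codon peaks. A wide peak can meet more transcript parts. The share of peaks that included a stop codon was 11.5% (10.2 to 12.9) at 200 bases or less and 66.2% (64.5 to 67.8) above 1000 bases.

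The widest regions reached many kilobases. AHNAK2 held a region of 13000 bases and AHNAK one of 9800, each in 1 unbroken block, and both genes encode giant scaffold proteins. The region of ZDBF2, an imprinted gene, covered 7000 bases in 2 blocks, that of CENPF, a kinetochore protein, 6600 bases in 7 blocks, and that of the transcription factor USF3 6200 bases in 2 blocks. Their scores spread widely, from 135 for ZDBF2 and 349 for AHNAK2 to 2620 for CENPF and 3557 for AHNAK. A block longer than 1000 bases was found in 28.2% of stop codon peaks, 18.6% of coding peaks, 13% of non-coding RNA peaks, 10.8% of 3′ UTR peaks and 6.22% of 5′ UTR peaks.

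Many regions were split along the genome. After touching blocks were joined, 8355 peaks (54.7%) were 1 unbroken stretch of the genome and 6917 (45.3%, 44.5 to 46.1) were split over separate blocks, with 4315 in 2 blocks, 1762 in 3 and 840 in more. The gaps between blocks, of which the median was 1992 bases, were not checked against exon models. Split peaks made up 56.1% (54.8 to 57.3) of stop codon peaks, 55.9% (53.8 to 58.0) of 5′ UTR peaks and 51.1% (48.2 to 54.1) of coding peaks. Among 3′ UTR peaks they made up 17.7% (16.3 to 19.1), and among those annotated with the 3′ UTR alone 4.38%. The region of EXD3, with a fold of 138, joined 5 blocks spread over chr9:137381201-137423262, and it covered 1800 bases.

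**Figure D1:**
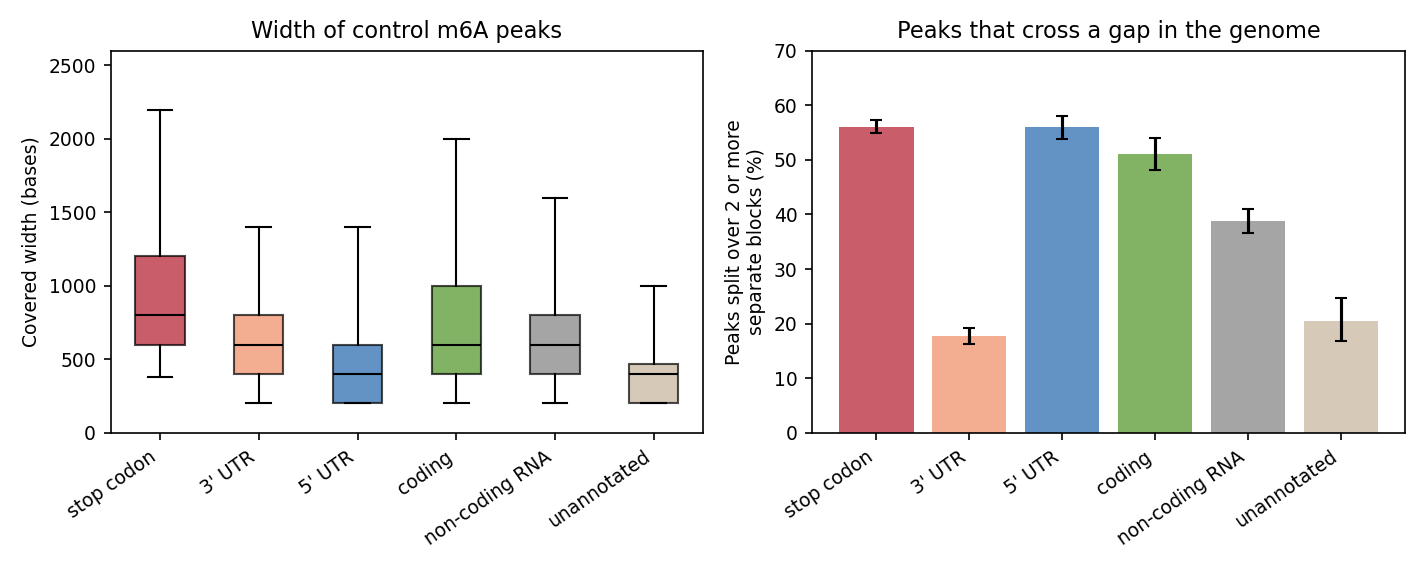
Covered width in bases (left; line for the median, box for the quartiles, whiskers for the 5th to 95th percentile of peaks) and share of peaks split over 2 or more separate blocks in percent (right; bars with 95% exact binomial intervals) for 6 annotation classes of control m6A peaks. Stop codon peaks are the widest, with a median of 800 bases, and 3′ UTR peaks are split least often, at 17.7%.

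Peaks annotated with a stop codon, of whichever transcript, also led the list by score and fold. Of the 1527 peaks in the top score decile, 75.6% (73.4 to 77.8) included a stop codon, against 9.36% (7.92 to 11) of the 1474 in the lowest decile. Non-coding RNA peaks went the other way, from 28.8% (26.5 to 31.2) of the lowest decile to 1.05% (0.600 to 1.70) of the top. The 3′ UTR share went from 25.5% to 10.02% and the 5′ UTR share from 19.5% to 5.63%. Coding peaks moved less, from 5.90% in the lowest decile to 9.87% in the ninth and 6.81% in the top. Ranked by fold enrichment in place of score, the stop codon share was 9.71% in the lowest decile and 73.3% (71.0 to 75.5) in the top, while 5.89% (4.76 to 7.19) of the top decile lay on non-coding RNA.

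**Figure D2:**
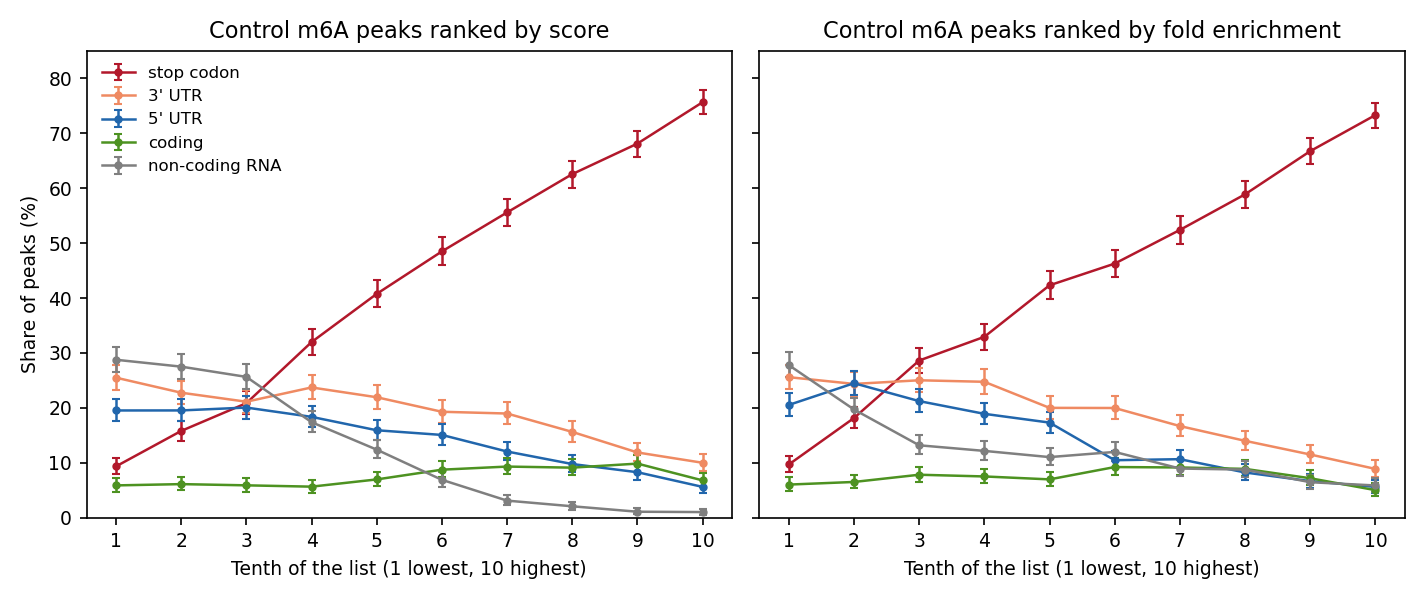
Share of peaks in 5 annotation classes, in percent with 95% exact binomial intervals, in each decile of the control list ranked by score (left) and by fold enrichment (right). By score, the stop codon share goes from 9.36% in the lowest decile to 75.6% in the top and the non-coding RNA share from 28.8% to 1.05%.

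The same order was seen among peaks of 1 width. Of peaks that covered exactly 600 bases, 28.1% (25.6 to 30.7) of the 1240 in the lower 50% by score included a stop codon, against 58.4% (55.9 to 60.9) of the 1514 in the upper 50% and 67.9% (61.2 to 74.1) of the 215 in the top decile. At 200 bases the shares were 10.6% (9.16 to 12.1) in the lower 50% and 22.2% (17 to 28.2) in the upper 50%, and at 1000 bases 33.6% (29.0 to 38.5) and 64.0% (60.7 to 67.3). Median scores by class were 411 at stop codons, 236.5 in coding sequence, 92 in 3′ UTRs, 72 in 5′ UTRs, 26 on non-coding RNA and 14 without annotation. Median folds followed much the same order, at 29.3, 20.6, 14.6, 13.02, 12.8 and 8.93. An authors' FDR between 0.01 and 0.05, the limit that all peaks met, was carried by 9.65% of stop codon peaks, 30.1% of 5′ UTR peaks and 36.8% of unannotated peaks.

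Genes with a stop codon peak and another peak allow the classes to be set side by side within the same gene. The peaks of a gene need not lie on the same transcript. In 1106 genes with a stop codon and a 3′ UTR peak, the strongest stop codon peak had the higher score in 79.7% (77.2 to 82.0), and the median ratio of the scores was 3.76. In 1074 genes with a stop codon and a 5′ UTR peak the share was 82.4% (80.0 to 84.6) and the median ratio 5.83. Against coding peaks, in 469 genes, the share was 56.3% (51.7 to 60.8) and the median ratio 1.19. By fold enrichment the stop codon peak was higher in 75.3%, 80.0% and 61.2% of these genes. The stop codon peaks were also wider, with medians of 1000 against 600 bases for the 3′ UTR pairs and 800 against 400 for the 5′ UTR pairs. Where both peaks of a gene had the same width, the stop codon peak was higher in 67.4% (56.7 to 77.0) of 89 genes against the 3′ UTR, in 74.2% (63.8 to 82.9) of 89 against the 5′ UTR and in 38.5% (25.3 to 53.0) of 52 against coding sequence. At equal width the coding peak thus came out higher more often than not in this small set, with an interval that includes 50%.

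**Figure D3:**
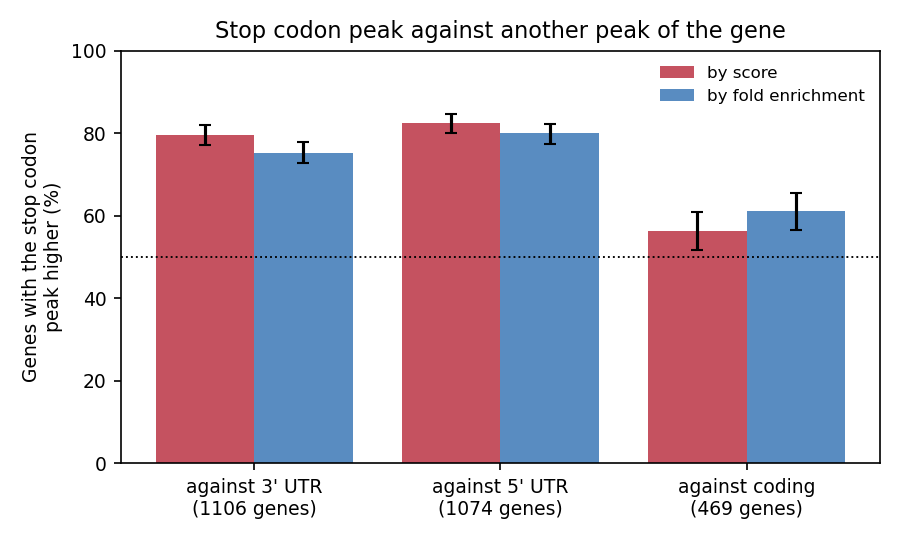
Share of genes, in percent with 95% exact binomial intervals, in which the strongest stop codon peak exceeded the strongest 3′ UTR, 5′ UTR or coding peak of the same gene, by score and by fold enrichment; the dotted line marks 50%. The share is 79.7% against the 3′ UTR, 82.4% against the 5′ UTR and 56.3% against coding sequence by score.

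The highest-scoring regions of each class named genes of quite different roles. Among stop codon peaks the scores were highest for SLC7A5, a large neutral amino acid transporter (29596, chr16:87832168-87832967), DAG1 (22000) and PRSS23, a secreted serine protease (18695). The top 3′ UTR peak was a second SLC7A5 region, with a score of 59181 at 600 bases past the end of the first in the direction of transcription, followed by PPIB, a cyclophilin of the endoplasmic reticulum (9297), and the ribosomal protein gene RPL13 (8827). In the 5′ UTR class the leaders were TOB1, an antiproliferative adaptor of mRNA deadenylation (8145, chr17:50863144-50864143), the tubulin gene TUBB (7597) and the kinase gene WNK1 (5145). The TUBB peak had a −log10 FDR of 1.303, just inside the limit. In coding sequence they were BLTP2, listed under its older name KIAA0100 (6139), the tubulin gene TUBB4B (6111) and SON, a splicing cofactor of nuclear speckles (5761, 4400 bases in 1 block). Non-coding RNA was led by MALAT1 (15978), FGD5-AS1 (6303) and LINC00473 (5327). Regions without annotation reached 1524 in TRABD2A, 900 in DNAJC21 and 836 in TRMU, and peaks that joined a 5′ UTR and a 3′ UTR without a stop codon 7062 in RPL36AL, 4474 in CYP1B1 and 3701 in NOP10.

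The fold enrichment named other genes than the score. Among peaks with at least the median score of 158, the highest fold was 233 in DNAJC22, a membrane-bound J protein, and then 225 in NOL9, a polynucleotide kinase of ribosomal RNA processing. BLOC1S4 (180), LMTK3 (155), INF2 (151), PLEKHF1 (148), DNAAF10 (145, listed as WDR92), SLC7A5 (141), ZNF316 (141) and EXD3 (138) followed. Of these 10 peaks 7 included a stop codon, those of INF2 and SLC7A5 lay in the 3′ UTR, and that of LMTK3 lay in coding sequence. The lowest FDR of the list, a −log10 value of 114, belonged to NOL9. At the other end the lowest −log10 FDR, 1.30, was shared by SRSF11, TBC1D4 and MRTFA (listed as MKL1), each scoring 160 with a fold of 10.1, just inside the FDR limit.

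Score and fold ranked the list alike in part. Spearman's rho between them was 0.769 over all 15272 peaks, 0.608 among stop codon peaks, 0.741 among coding peaks and 0.921 among non-coding RNA peaks. Peaks share their libraries, so these are descriptions with no test. Fold and −log10 FDR had a rho of 0.926, fold and covered width 0.715, and score and width 0.528. Of the top decile by score, 614 peaks (40.2%) were also in the top decile by fold. In 87 peaks a top-decile score came with a fold in the lower 50%, and these included the tubulin gene TUBB (score 7597, fold 18.1), the chaperone-like ERP29 (4946, 17.9) and the ribosomal protein gene RPL13A (3789, 14.8). In 53 peaks a top-decile fold came with a score in the lower 50%, as in ZNF589 (score 146, fold 93.8), TICRR (155, 87.7), the protocadherin FAT4 (130, 83.6) and LINC00511 (107, 79.3). These genes were named for their position on the plot of score against fold, after the values were seen. Of the 53 peaks 19 were stop codon and 18 non-coding RNA peaks, and of the 87 peaks 56 were stop codon peaks and 1 lay on non-coding RNA.

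The weak end of the list showed how the values step. All 388 peaks at the lowest score, 3, had the same fold of 3.42 and the same FDR of 0.0444, and 94.3% of them covered 200 bases or less. They lay in the 3′ UTR in 106 cases, on non-coding RNA in 94, in the 5′ UTR in 84, without annotation in 50 and at stop codons in 32. No peak exceeded a fold of 0.856 times its score plus 1, and 1079 peaks (7.07%) lay on that line to within a relative tolerance of 1e-06. On it a score of 4 gave a fold of 4.28 in 197 peaks and a score of 5 gave 5.14 in 109. For the peaks on the line the fold follows from the score, and peaks of equal score on it have no order among themselves.

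**Figure D4:**
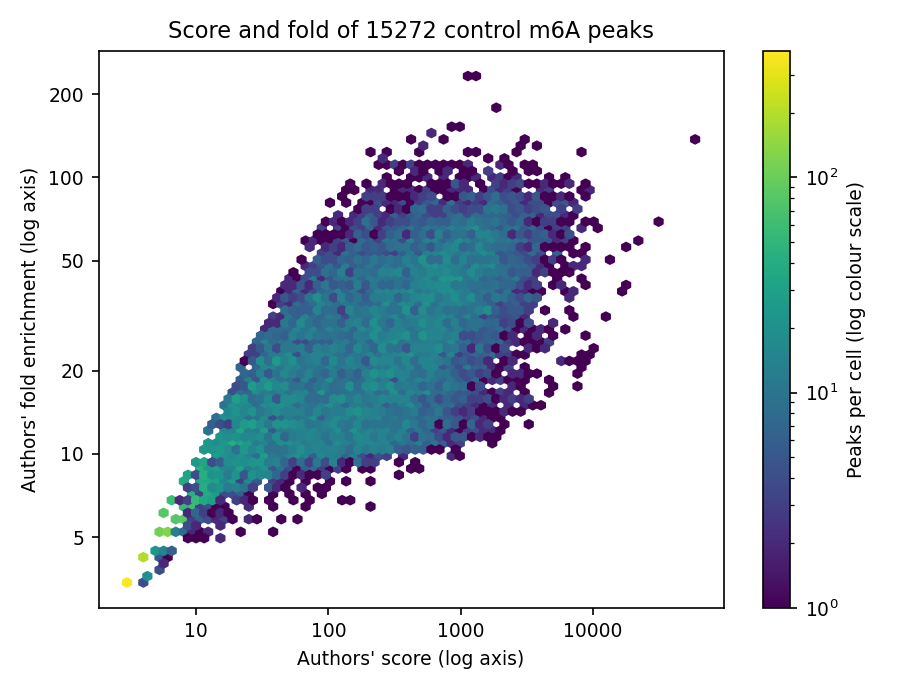
Authors' fold enrichment against authors' score of 15272 control m6A peaks, on log axes, with the number of peaks in each hexagon as colour on a log scale. The lower left point holds the 388 peaks of score 3 and fold 3.42, the straight upper left edge is the line of the highest fold per score, and the point at the far right is SLC7A5 with a score of 59181.

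Most genes held a single region. Of 9618 genes, 5857 (60.9%, 59.9 to 61.9) had 1 peak, 2498 (26.0%) had 2, 883 (9.18%) had 3 and 380 (3.95%) had 4 or more. Genes with more peaks were longer, with a median RefSeq gene span of 25.2 kb for 1 peak, 35.6 kb for 2, 51.7 kb for 3 and 83.3 kb for 4 or more. The strongest peak of a gene had a median score of 184 with 1 peak, 371.5 with 2 and 511 with 3, and 466.5 with 4 or more. Of the 3761 genes with more than 1 peak, 961 (25.6%) had all of them in 1 class. The commonest pairings were stop codon with 3′ UTR (756 genes), stop codon with 5′ UTR (733) and stop codon alone (427), and 5662 genes (58.9%) had a stop codon peak in all. By the class of the strongest peak, gene spans had medians of 30.5 kb for stop codon, 31.1 kb for 5′ UTR and 38.8 kb for 3′ UTR genes, and 67.4 kb for coding genes.

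MUC16, which encodes a very large cell-surface mucin, had the most regions. All 20 were in coding sequence, with widths from 400 to 1800 bases that summed to 14800, and none had a score above 39. FAT1, an atypical cadherin, had 8 regions with scores from 671 to 5835, so that every one lay in the upper 50% of the list. DST, a spectraplakin that links cytoskeletal filaments, had 12 regions with scores from 4 to 422, 7 of them in coding sequence. ZFHX3, a zinc finger homeobox factor, had 10 (21 to 1149) and MACF1, another spectraplakin, had 9 (11 to 1065). NRDE2, a nuclear protein of RNA surveillance, had 8, of which 7 lay in the 3′ UTR with scores from 10 to 365. MTCL1, ARID1B and FAT4 also had 8 and CHST12, a chondroitin sulfotransferase, had 7, with 3446 at its stop codon and 14 to 127 at 5 regions annotated as 3′ UTR. Summed over their regions, AHNAK2 covered 16971 bases, AHNAK 16400, MUC16 14800, DST 12600 and FAT4 11600.

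Some genes had high scores in separate 5′ UTR and stop codon regions. The 5 genes whose weaker region ranked highest were WNK1, with scores of 5145 in the 5′ UTR and 3218 at the stop codon, CHSY1 (4027 and 3952), TMEM115 (3700 and 3831), FBXW2 (4207 and 3299) and HNRNPA0 (3258 and 3674). CHSY1 is a chondroitin synthase, FBXW2 a ubiquitin ligase subunit and HNRNPA0 an RNA-binding protein. In each gene the 5′ UTR region was also annotated with coding sequence. In HNRNPA0 the regions were 200 bases apart, chr5:137753577-137754376 and chr5:137752577-137753376. In WNK1 the 5′ UTR region spanned chr12:753393-827136 in 3 blocks and the stop codon region chr12:890480-897508 in 4 blocks, and a weaker stop codon region of score 69 lay between them.

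Regions near the 5′ end could hold m6A or m6Am, and the first transcribed base was read from RefSeq for genes with 1 start. Of the 5′ UTR peaks of such genes, 48.5% of 1034 covered the start and 72.0% reached within 200 bases of it. The share within 200 bases was 9.46% for stop codon peaks, 2.76% for coding peaks and 0.128% for 3′ UTR peaks. The start base was A in 54.1% (51.2 to 57.1) of the 1129 genes with a peak within 200 bases of it, in 44.2% (42.5 to 45.9) of the 3318 genes whose peaks lay elsewhere and in 54.5% (53.3 to 55.6) of the 7311 genes with none. Among genes with a peak, those with a peak at the start thus had A there more often than the rest, with intervals that do not overlap, and no more often than genes without a peak. The share of G was 36.0%, 45.0% and 32.0% in the 3 groups. By class of the peak at the start, the share of A was 55.9% (52.2 to 59.5) in 741 genes with a 5′ UTR peak and 50.6% (45.2 to 56.0) in 342 genes with a stop codon peak. Among the 5′ UTR peaks it was 54.1% for those annotated with the 5′ UTR alone, 54.7% for those in the top 50% by score and 59.1% (53.2 to 64.7) for those of 200 bases or less, in 298 genes. The intervals of these 5′ UTR shares include the 54.5% of genes without a peak.  The part of m6Am in these peaks was not tested.

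A few regions covered the hairpin of a microRNA, wholly or in part. Whether these hairpins lie in exons was not checked. Of 1562 hairpins in the RefSeq table, 28 shared bases with a peak block on the same strand and 25 lay wholly inside. The highest score was that of SON, whose coding peak holds MIR6501 (chr21:33550662-33550728). MIR671 lies in the stop codon peak of CHPF2 (score 2975) and MIR3618 in that of DGCR8 (score 277), which encodes the partner of Drosha in hairpin cleavage. MIR3714 shared 17 of its 65 bases with the PLCL2 peak. The mature sequences of the hairpins wholly inside these peaks are shown to identify them, with the seed (bases 2 to 8) in capitals.
hsa-miR-6501-5p: aGUUGCCAgggcugccuuuggu
hsa-miR-6501-3p: cCAGAGCAgccugcgguaacagu
hsa-miR-671-5p: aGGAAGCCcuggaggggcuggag
hsa-miR-671-3p: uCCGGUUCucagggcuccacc
hsa-miR-3618: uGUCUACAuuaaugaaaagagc
No seed was shared among these 5. In 8 cases the list gave the microRNA gene a region of its own, with scores from 3 (MIR4522) to 49 (MIR7161) and the width of the hairpin. The peaks of 200-base steps cannot place a mark inside a hairpin.

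The genes that write, read and erase m6A held regions themselves in most cases. Of 12 writer genes 10 had a region (83.3%, 51.6 to 97.9). RBM15B and RBM15, which guide the complex to RNA, had stop codon peaks with scores of 3758 and 2473 that covered 3000 and 3400 bases. METTL16, the writer of the U6 and MAT2A transcripts, had 1825, the complex members WTAP 1580, VIRMA 1186 (listed as KIAA1429) and ZC3H13 1158, CBLL1 603, and PCIF1, the cap writer, 234. The strongest peaks of VIRMA and ZC3H13 lay in coding sequence. Of the catalytic pair, METTL14 had a stop codon peak that scored 434 with a fold of 47.1, while METTL3 had a 5′ UTR peak of 200 bases that scored 12 with a fold of 7.30. METTL5 and ZCCHC4, writers of ribosomal RNA, had none.

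Of 16 reader genes 11 had a region (68.8%, 41.3 to 89.0). With an FDR under 0.01 the reader share was 62.5% (35.4 to 84.8), against 34.6% of protein-coding genes. In the top 50% by score it was 37.5% (15.2 to 64.6), an interval that includes the 27.0% of protein-coding genes. Among the cytoplasmic YTH proteins, YTHDF2 had a score of 4863, YTHDF1 2230 and YTHDF3 1974, all in the top decile. PRRC2A had 4723 and RBMX 1673. The IGF2BP proteins, known to stabilise their targets, came lower, with 458 for IGF2BP3, 119 for IGF2BP2 and 18 for IGF2BP1. YTHDC1, the nuclear reader, had an unannotated 200-base peak of score 81, FXR1 had 56 and FMR1 8. YTHDC2, HNRNPA2B1, HNRNPC, FXR2 and ELAVL1 had none. Both erasers had regions, with 2001 in the 5′ UTR class for ALKBH5 and 364 at the stop codon for FTO, which had 3 peaks. With so few eraser genes the interval runs from 15.8% to 100% and includes the background share.

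Several lists of regulatory genes had a region in most of their members. Immediate-early genes, whose short-lived messages respond to growth signals, had a region in 36 of 38 members (94.7%, 82.3 to 99.4), and 17 of these had a peak in the top score decile. IER2 had a score of 9313, CCN1, a secreted matrix protein, 7341, and MYC 6960, all at stop codons, and EGR3 and DUSP2 had none. Chromatin regulators had 59 of 71 (83.1%, 72.3 to 91.0), with 167 regions of which 40 lay in coding sequence alone. Their strongest were EP300, a histone acetyltransferase (3374, in the 5′ UTR class), ARID1A of the SWI/SNF complex (2700) and the methyltransferase gene KMT2D (2491), and EZH2 and EHMT2 had none. Genes of Hippo, WNT, NOTCH and TGF-beta signalling had 46 of 60 (76.7%, 64.0 to 86.6), led by the receptors TGFBR1 (9316) and NOTCH2 (7481) and by CTNNB1, beta-catenin (3894), with none in WWTR1 and TEAD2. The KLF factors had 14 of 18, led by KLF13 (3945), KLF4 (1617) and KLF6 (1616).

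Zinc finger genes combined many regions with low ranks. Of 517 genes named ZNF, 346 had a region (66.9%, 62.7 to 71.0), and 387 of their 639 regions included a stop codon. The strongest peak of a ZNF gene stood at a median score percentile of 55.4, against 67.4 for all protein-coding genes with a peak. Of the 346, 15 had a peak in the top decile, against 1313 of the 7758 protein-coding genes with a peak. ZNF131 (3390), ZNF831 (3187) and ZNF146 (2829) led. The HOX genes had 21 of 39 (53.8%, 37.2 to 69.9), a median percentile of 53.0 and none in the top decile, led by HOXC11 (1034), HOXC10 (914) and HOXA11 (522). Collagens had 17 of 44 and a median percentile of 41.9, with COL5A1 (2490), COL5A2 (2234) and COL12A1 (955) first.

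The lists of stress, cholesterol, matrix and cell cycle genes had intervals above the background share, which for matrix and cell cycle genes did not hold under every filter. The heat shock and stress list had 27 of 39 (69.2%, 52.4 to 83.0), with 16 members in the top decile, led by the chaperones HSPA8 (10171) and HSPA5 (7009) and by PPP1R15B (6961), a phosphatase subunit of the stress response, and HSF2 and HSPA4 had none. HSPA1A and HSPA1B, near-identical copies, had 3092 and 6100, and reads may be split between them. Genes of cholesterol synthesis had 20 of 28 (71.4%, 51.3 to 86.8), among them the sterol oxidase gene MSMO1 (2925), and FDFT1 and PMVK had none. The matrix list had 28 of 48 (58.3%, 43.2 to 72.4), led by PLOD1, a collagen lysyl hydroxylase (6912), the collagen chaperone SERPINH1 (4484) and THBS1 (3610), with none in COL1A2 and COL3A1. Cell cycle regulators had 27 of 50 (54.0%, 39.3 to 68.2), led by MDM2, a ubiquitin ligase (4229, in the 3′ UTR), and the transcription factor E2F3 (1925), with none in CCND2 and CCND3. With an FDR under 0.01 the cell cycle list stood at 42% (28.2 to 56.8) against 34.6% of protein-coding genes, and in the top 50% by score at 36% (22.9 to 50.8) against 27.0%. The matrix list stood at 39.6% (25.8 to 54.7) in that top 50%, so these intervals include the background.

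Several other lists of protein-coding genes had intervals that include the background share. Integrins, receptors for the matrix, had 6 of 26 (23.1%, 8.97 to 43.6), of which ITGA5 (7714), ITGA3 (5284) and ITGA6 (2748) were in the top decile. Solute carriers (SLC) had 166 of 386 (43.0%, 38.0 to 48.1) with a high median percentile of 77.2, and after SLC7A5 the lactate transporters SLC16A1 (9340) and SLC16A3 (7527) were first. In the top 50% by score the SLC share was 32.6% (28.0 to 37.6), above the 27.0% of protein-coding genes. Glycolysis genes had 10 of 23 (43.5%), led by the same lactate transporters and the glucose transporter SLC2A1 (2583), and HK1 and GPI had none. Among RAB genes 25 of 63 had one, led by RAB8A (2026), RAB20 (1589) and RAB40C (1367), and among TMEM genes 91 of 233, led by TMEM248 (6363), TMEM115 (3831) and TMEM43 (3685). Proteasome subunits had 11 of 31 (35.5%, 19.2 to 54.6), with none in the top decile and PSMB4 (1342), PSMC3 (939) and PSMD11 (928) first and none in PSMA1 and PSMA3. Translation initiation factors had 14 of 41 (34.1%, 20.1 to 50.6), yet EIF4G1 (7569) and EIF3A (6620) ranked high, followed by EIF5B (1913), and EIF1 and EIF1AX had none. Long non-coding RNAs of the list, for which the share of protein-coding genes is no background, had 14 of 37, with NORAD (4177) and NEAT1 (2271) after MALAT1, and GAS5 and SNHG1 had none.

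Genes of the basic machinery had few regions. Cytosolic ribosomal protein genes had 19 of 78 (24.4%, 15.3 to 35.4), with a median percentile of 28.3, although RPL13 (8827), RPL13A (3789) and RPL36 (2650) ranked high and RPLP0 and RPLP1 had none. Nuclear genes of the respiratory chain and ATP synthase had 16 of 72 (22.2%, 13.3 to 33.6), led by COX6A1 (3288), NDUFS3 (3185) and UQCR10 (945), with none in NDUFA1 and NDUFA2. Replication-dependent histone genes, short messages without introns, had 10 of 56 (17.9%, 8.91 to 30.4), led by H4C5 (1432), H2AC13 (477) and H2BC5 (387), with none in H1-1 and H1-2, and none of their 11 regions included a stop codon. Histone and ribosomal protein genes have many near-identical copies, so their counts are uncertain. The 15 mitochondrially encoded genes had none, which allows a share of up to 21.8%. Families tied to other tissues were nearly without regions: 1 of 392 olfactory receptors (OR1F1, score 24), 2 of 55 keratins (KRT80 with 668 and KRT7 with 265) and 2 of 66 protocadherins (PCDH7 with 4317 and PCDH1 with 457).

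**Figure D5:**
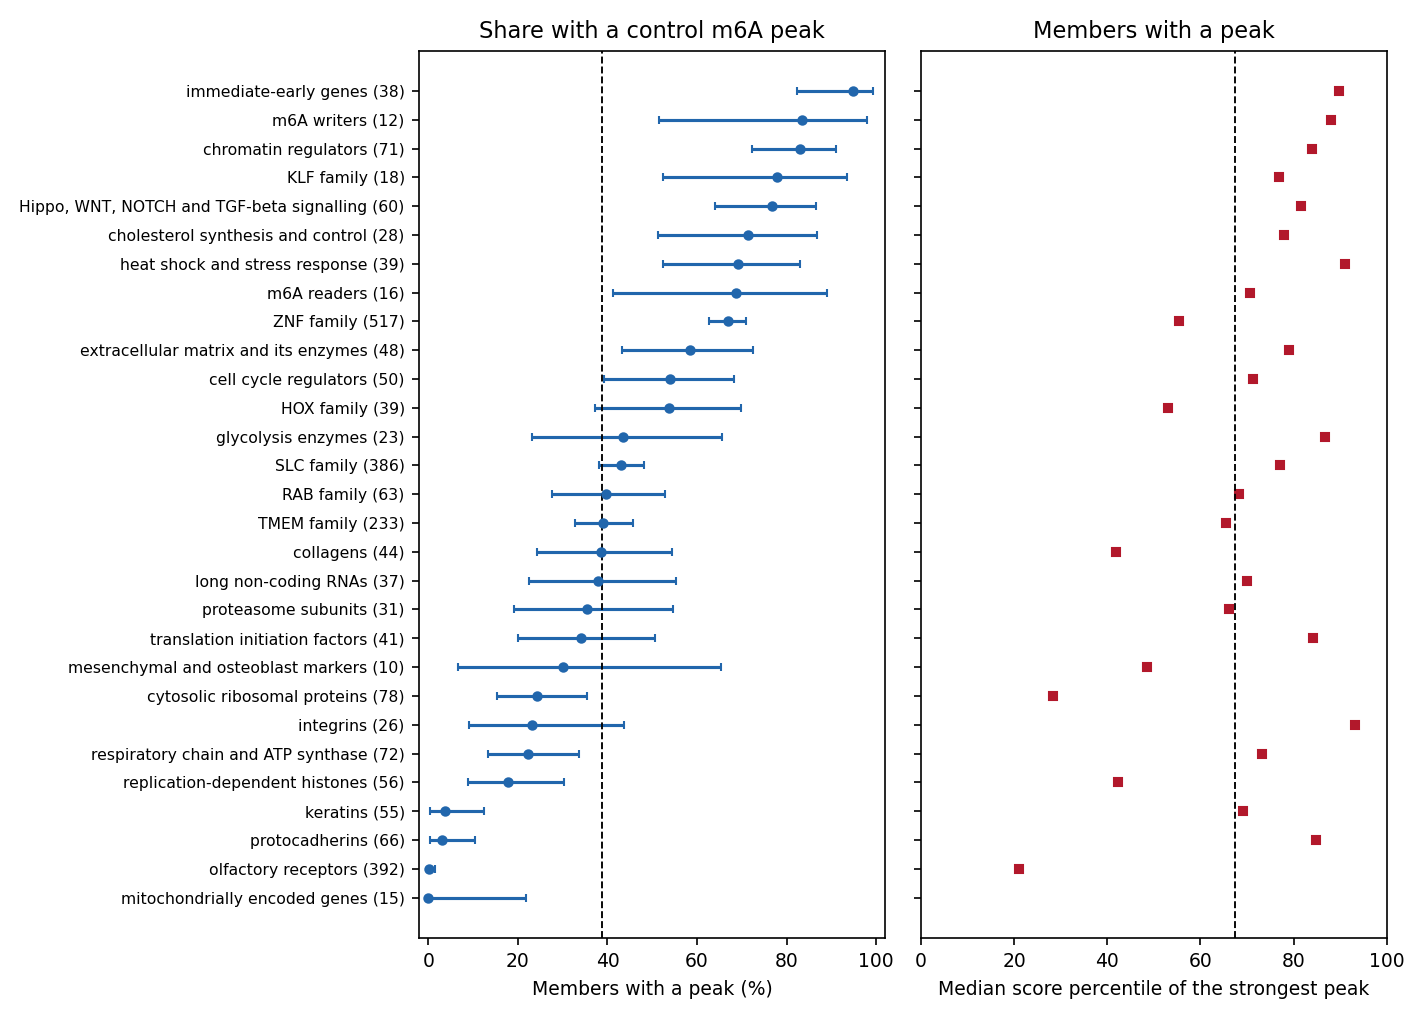
Share of members with a control m6A peak for 29 gene lists and families of 10 or more members, in percent with 95% exact binomial intervals (left), and median score percentile of the strongest peak of the members with one (right); numbers in parentheses are members, and dashed lines mark all protein-coding genes at 38.7% and percentile 67.4. Immediate-early genes stand at 94.7% and olfactory receptors at 0.255%.

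By chromosome, the share of protein-coding genes with a region was highest on chromosome 9 (45.6%, 42.1 to 49.2), 16 (45.0%) and 15 (44.7%). It was lowest on Y, where 0 of 63 genes had one (up to 5.69%). Next came X (25.6%, 22.7 to 28.7), 11 (32.8%, 30.3 to 35.4) and 21 (33.1%). Chromosome 19 had 1046 regions with a low median score of 112 and the highest share of stop codon peaks, 47.9%. Some regions are shared by neighbours: 905 (5.93%) had at least 1 base in common with a region of another gene on the same strand and 462 (3.03%) with one on the opposite strand. Their enrichment cannot be given to 1 gene alone.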

How the data were processed

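The submitters' processing notes name HISAT2 and hg38. No source used here names the peak caller, the way peaks were merged or the gene annotation. The authors deposited 1 control list, which gives per the file headers a score, a fold enrichment (ratio) over input and a −log10 FDR (all under 0.05) for each peak. Read depth is unknown and not used here. The members and gene lists were chosen with earlier results of these data known. Touching blocks were joined before counting, since deposited blocks also follow 200-base bins, in 85.6% of peaks. The block code recovered the exons of 2000 of 2000 peaks that were simulated by the rule it assumes. That result checks the code only and cannot show whether the deposited blocks follow the rule. Minus-strand block sizes were reversed. A peak with a stop codon was a stop codon peak; otherwise 5′ UTR without 3′ UTR, 3′ UTR without 5′ UTR, or coding alone gave the class. RefSeq (GRCh38.p14) gave names: of 9618 genes, 7871 symbols were current, 585 were updated, 1118 were kept and 44 had none; 98.5% of matched peaks lay within 2000 bases of their gene. For the text, the rule took the top 3 peaks by score per class and list (some list members are not reported here), the first 2 list members without a peak, the top 10 by fold and by peaks per gene, the top 5 by width, covered bases and paired ends, the 3 lowest −log10 FDR, and writers, readers, erasers and markers in full; other named genes, within-gene pairs, width-matched shares, score steps, start windows and microRNAs were chosen after the values were seen. Python 3.11.15, pandas 2.3.3, NumPy 2.4.6 and SciPy 1.17.1 were used. No p-value was computed.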

Additional observations from a re-analysis of the deposited data

How the results depend on the processing

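With an FDR under 0.01, class shares were 47.8% stop codon, 17.4% 3′ UTR, 12.4% 5′ UTR and 2.16% unannotated; 66.9% of genes had 1 peak, the median width was 800 bases, 48.2% of peaks were split, rho of score and fold was 0.720, and 34.6% of protein-coding genes had a peak. In the top 50% by score, the shares were 62.1%, 15.2%, 10.2% and 0.262%, with 8.78% coding and 2.86% non-coding RNA; the other values were 75.6%, 800 bases, 55.1%, 0.402 and 27.0%. Counting peaks that touch no other transcript part, stop codon peaks were 0.0262%, 3′ UTR 15.3% and 5′ UTR 6.89%. Joining peaks of a gene within 500 bases left 67.2% of genes with 1 peak. Ranked by fold, the top decile was 73.3% stop codon, 5.04% coding and 5.89% non-coding RNA. With symbols as in the file, 36.4% of protein-coding genes had a peak. The cause was not tested, apart from the smaller lists that the filters leave. The other 14 values, among them the first base and gene span at an FDR under 0.01, stayed within their intervals. Of 68 gene-list shares under both filters, 15 left their interval, all of them lower, 14 in the top 50% by score. Protein length by class was not run, and motifs and exon models were not used here. No paired analysis was possible because the list holds 1 control m6A-IP and 1 input, with no test between groups. Depth and replicate error are unknown for every value.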
